A study of Mus musculus with 6 samples.

Results

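The comparison of KD3010 with DMSO in primary mouse hepatocytes was made on 4 arrays, 2 of each group, out of 6 in the study. The cells were isolated from wildtype C57Bl6/J males aged 10 weeks, and no group carried a transgene or deletion. They had received the vehicle DMSO or KD3010, an agonist of the nuclear receptor PPAR-delta. The remaining 2 arrays held hepatocytes given GW1516, another PPAR-delta agonist. They were normalized and fitted together with the 4 arrays, so the standard errors, p-values and calls of the main fit depend on them too. Their own values are only set beside those of KD3010 or tested directly against them. Technical replicates is the labels' term for the 2 arrays within a group, so every p-value here measures array-to-array spread, without that of cultures or animals. Neither the dose of a compound nor the length of treatment is given in the sources used here. Of 25697 probes on the array, 10229 passed detection (p below 0.05) on both DMSO arrays, both KD3010 arrays or all 4. With each gene taken at its brightest such probe they gave 7848 features, 7266 of them named genes and 582 unnamed probes, and 7244 were detected on all 4 arrays. The 100 probes nearest inside the detection limit had mean intensities of 272.7 to 321.1 over the 4 arrays, and the 100 nearest outside it 276.9 to 318.2.

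PPAR-delta is a ligand-activated transcription factor that binds DNA as a heterodimer with a retinoid X receptor, at direct repeats of the hexamer AGGTCA. The best known genes under PPAR receptors move fatty acids into mitochondria and peroxisomes and oxidise them there, coat lipid droplets and restrain the use of pyruvate. In hepatocytes many of these genes also answer to PPAR-alpha, the receptor through which fatty acids act during fasting.

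The promoters of 3 genes that changed are shown so that these motif letters can be seen beside the values. Each is the 250 bases before the RefSeq gene start in build GRCm38.p6, written in the direction of the gene. The Plin2 window is chr4:86670060-86670309 on the minus strand, the Creb3l3 window chr10:81092592-81092841 on the minus strand at the first of its listed starts, and the Mt2 window chr8:94172368-94172617 on the plus strand. Capitals mark the half-site AGGTCA on either strand in Plin2 and Creb3l3, and in Mt2 the core of the metal response element, TGCACNC or TGCGCNC on either strand.
Plin2: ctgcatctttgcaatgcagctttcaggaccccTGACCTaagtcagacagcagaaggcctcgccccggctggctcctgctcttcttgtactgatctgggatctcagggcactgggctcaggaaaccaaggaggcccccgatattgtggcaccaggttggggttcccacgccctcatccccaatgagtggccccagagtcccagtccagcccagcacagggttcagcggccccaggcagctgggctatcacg
Creb3l3: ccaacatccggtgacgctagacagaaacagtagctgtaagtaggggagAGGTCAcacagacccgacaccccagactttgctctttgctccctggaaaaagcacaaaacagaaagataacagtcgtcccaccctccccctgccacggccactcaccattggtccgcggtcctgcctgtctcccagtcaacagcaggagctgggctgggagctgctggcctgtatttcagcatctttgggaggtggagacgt
Mt2: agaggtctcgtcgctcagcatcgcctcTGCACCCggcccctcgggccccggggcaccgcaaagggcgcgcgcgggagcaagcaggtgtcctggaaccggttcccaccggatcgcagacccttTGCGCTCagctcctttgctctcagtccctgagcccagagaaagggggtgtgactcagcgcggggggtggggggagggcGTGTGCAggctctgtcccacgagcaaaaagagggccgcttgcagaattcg
The half-site lies 218 to 213 bases before the start in Plin2, on the opposite strand, and 202 to 197 bases before it in Creb3l3. The window at the second listed start of Creb3l3, chr10:81098873-81099122, holds 0 half-sites. Mt2 holds 3 metal response cores, at 223 to 217, 128 to 122 and, on the opposite strand, 50 to 44 bases before the start. Of 32851 RefSeq promoter windows of the same length, 14% hold the half-site, 21.4% hold the metal response core and 0.0335% hold the repeat AGGTCANAGGTCA. Windows were found for 11 of the 13 genes looked up, the called genes with Guca2b and Mt1. The half-site was also present in Ivl, and 1 metal response core in Mt1. These letters were not in the windows of Pdk4, Hilpda, Nceh1, Ifnk, Guca2a and Guca2b, and the repeat was in none of the windows looked up. A match is a description of the sequence and not a binding site.

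Between 10239 and 10805 probes were detected per array at a mean signal of 953.2 to 1157. Across the tested features the 2 DMSO arrays correlated at 0.991 and the 2 KD3010 arrays at 0.990, against 0.986 to 0.987 between the groups. Of 16 hepatocyte markers 13 were detected on all 4 arrays, and the probes for Alb, Fgb and Tat on none. The summed hepatocyte marker signal, on the linear scale after normalization, was 570873 to 575076 with DMSO and 559352 to 575613 with KD3010.

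Hepatocytes given KD3010 had more signal for the lipid droplet and neutral lipid genes Plin2, Hilpda and Nceh1 and the fasting genes Creb3l3 and Pdk4, and less for Guca2a, Mt2 and Scnn1a. Out of 7848 features limma called 11, at an adjusted p below 0.05 and a change of at least 1.5-fold (0.14% of the features). Of these, 8 were higher with KD3010 (0.102%) and 3 lower (0.0382%), and each of the 11 is a named gene whose KD3010 arrays were both outside the DMSO range. All but Ivl, described below, were detected on all 4 arrays. At an unadjusted p below 0.05 there were 986 features (12.6%), 438 of them higher (5.58%) and 548 lower (6.98%). The median difference over all features was -0.00145 on the log2 scale, and 3901 features were higher. The called count was lower with any 1 array left out, including the arrays of GW1516, which are outside this comparison but share its fit. Such a fit keeps 1 array in a group and fewer degrees of freedom, and what lowered the count was not tested. All 11 called genes kept their direction. Their log2 difference then was 1.96 to 2.14 for Creb3l3, 1.65 to 2.46 for Plin2 and -1.61 to -1.12 for Mt2. The called count was 34 without background correction (19 higher, 15 lower) and 32 on the authors' normalized values (17 higher, 15 lower). Fitted to the 4 arrays only, without those of GW1516, it was 7.

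**Figure D1:**
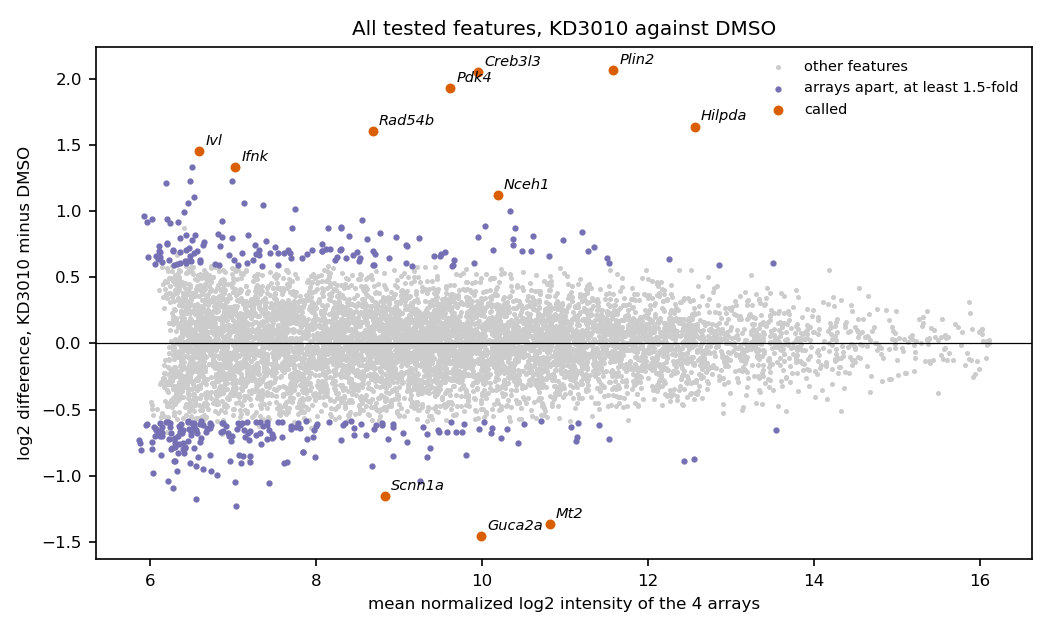
Log2 difference between the means of the KD3010 and DMSO arrays (vertical axis) against the mean normalized log2 intensity of the 4 arrays (horizontal axis), 1 point per tested feature. The 11 called genes are orange and named, features whose arrays lie apart by at least 1.5-fold are violet, and Plin2 and Creb3l3 stand highest at 2.06 and 2.05.

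The 3 called genes of lipid droplets and neutral lipid were Plin2, Hilpda and Nceh1. Plin2 encodes perilipin 2, the main coat protein of hepatocyte lipid droplets. Its unnormalized intensity was 2154 and 1588 on the DMSO arrays and 4636 and 8691 on the KD3010 arrays. Both KD3010 arrays were above both DMSO arrays, and array B of KD3010 was brighter than array A. After normalization Plin2 rose by 2.06 ± 0.26 (SE) on the log2 scale, 4.18-fold (limma adjusted p = 0.0155), the largest called change. Its call was kept in 11 of 18 alternative settings, with a log2 difference between 1.65 and 2.46.

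Hilpda encodes a small lipid droplet protein that inhibits the triglyceride lipase ATGL. It read 4548 and 3422 on the DMSO arrays and 10297 and 10952 on the KD3010 arrays, so the groups were well apart and the KD3010 arrays nearly equal. The rise was 1.64 ± 0.17 on the log2 scale, 3.11-fold (limma adjusted p = 0.00823). A second, dimmer probe of Hilpda differed by 1.48 in the same direction (limma adjusted p = 0.0115 over all kept probes). Nceh1 encodes a neutral cholesterol ester hydrolase. Its log2 values were 9.64 and 9.61 with DMSO and 10.67 and 10.82 with KD3010, a rise of 1.12 ± 0.16 or 2.17-fold (limma adjusted p = 0.0343), the smallest of the called rises, called in 9 of 18 alternative settings.

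Creb3l3 encodes a liver transcription factor, held in the endoplasmic reticulum membrane, that controls fasting lipid genes. Its intensity was 742 and 769 with DMSO and 2088 and 2258 with KD3010. Arrays of each group were close to each other, and the rise of 2.05 ± 0.17 on the log2 scale, 4.14-fold, had the lowest adjusted p of the comparison (limma adjusted p = 0.00301). Creb3l3 was called in 17 of 18 alternative settings, more than any other gene, and was lost without DMSO array B (adjusted p = 0.0721). Pdk4 encodes a kinase that switches off the pyruvate dehydrogenase complex. It read 785 and 562 with DMSO and 1647 and 1735 with KD3010, and rose by 1.93 ± 0.20 on the log2 scale, 3.80-fold (limma adjusted p = 0.00823). Pdk4 and Hilpda were each called in 15 of 18 alternative settings.

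The other 3 called rises lie outside lipid metabolism. Rad54b, a DNA recombination factor, had log2 values of 7.86 and 7.90 with DMSO and 9.59 and 9.38 with KD3010. This is a rise of 1.61 ± 0.22, or 3.04-fold (limma adjusted p = 0.0254). Without background correction the Rad54b difference was 1.04 on the log2 scale and was still called. Rad54b was called in 12 of 18 alternative settings, and not under median scaling (limma adjusted p = 0.0721), without a detection filter (0.0991) or with any 1 of the DMSO and KD3010 arrays left out (0.113 to 0.313).

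Ifnk, a type I interferon best known from keratinocytes, and Ivl, the cornified envelope protein involucrin, are dim. Ifnk had an intensity of 308 and 307 with DMSO and 396 and 438 with KD3010, and Ivl 271 and 280 against 362 and 380. The Ivl probe was not detected on either DMSO array, so it was tested only through the KD3010 arrays, a filter that favours this direction. After background correction Ifnk rose 2.52-fold and Ivl at least 2.16-fold, a bound set by the lowest detected signal (limma adjusted p = 0.0117 for each). Here and below such a bound allows only for undetected signal, and not for the spread between arrays or the background correction. Without background correction the log2 difference was 0.51 for Ifnk (limma adjusted p = 0.0559) and 0.49 for Ivl (limma adjusted p = 0.0735), and neither was called. Ifnk was called in 10 of 18 alternative settings and Ivl in 9 of the 17 that tested it, detection on all 4 arrays having left it out.

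Guca2a and Scnn1a act in salt and water handling. Guca2a encodes guanylin, a peptide that activates the receptor guanylate cyclase C, and Scnn1a the alpha subunit of the epithelial sodium channel. Guca2a read 2231 and 1885 on the DMSO arrays and 765 and 836 on the KD3010 arrays. It fell by 1.45 on the log2 scale (SE 0.17), 2.74-fold lower (limma adjusted p = 0.0117), and was called in 14 of 18 alternative settings. Scnn1a read 1017 and 913 with DMSO and 505 and 508 with KD3010, nearly the same on both KD3010 arrays. It fell by 1.15 on the log2 scale (SE 0.16), 2.22-fold lower (limma adjusted p = 0.0254). Scnn1a was called in 10 of 18 alternative settings, and not without a detection filter (limma adjusted p = 0.0775), with the 4 arrays only (0.0705) or with any 1 of the 6 arrays left out (0.0648 to 0.263).

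Mt2 encodes a metallothionein, a small cysteine-rich protein that binds zinc and copper. Its intensity was 2975 and 3849 with DMSO and 1343 and 1239 with KD3010, with no overlap between the groups. It fell by 1.37 on the log2 scale (SE 0.21), 2.58-fold lower (limma adjusted p = 0.0437), and was called in 9 of 18 alternative settings. Mt1, its neighbouring family member, read 70970 and 71023 with DMSO and 70643 and 68016 with KD3010. The brightest probe on these arrays read 71252 to 73228, so Mt1 lay near the top of the scale, where a difference could not be measured.

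**Figure D2:**
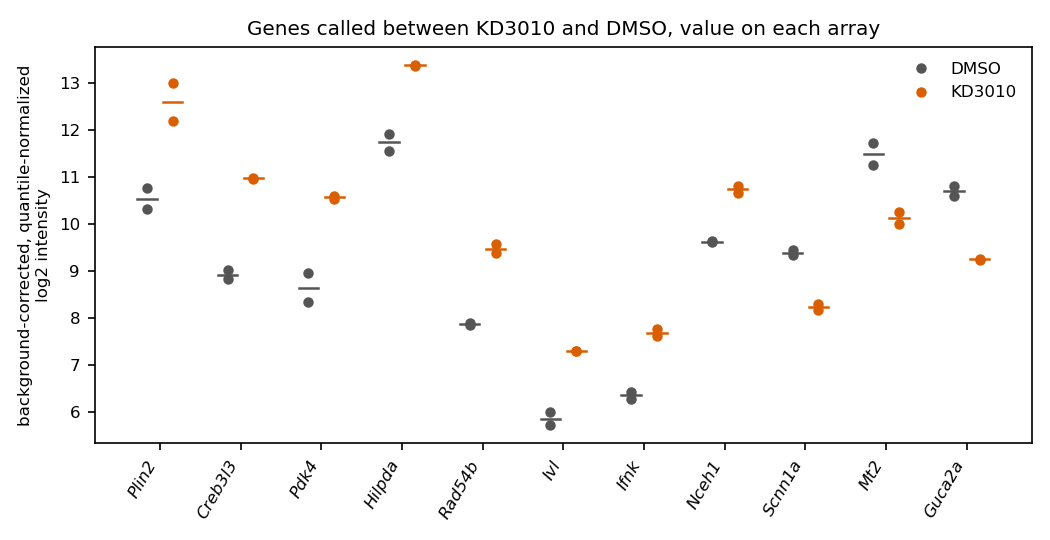
Background-corrected, quantile-normalized log2 intensity (vertical axis) of the 11 called genes on each DMSO array (grey) and each KD3010 array (orange), with bars at the group means. In every gene the 2 KD3010 points lie on one side of both DMSO points, and Plin2 has the widest spread between KD3010 arrays.

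A looser description counts features whose KD3010 arrays were both outside the DMSO range, with means at least 1.5-fold apart. There were 152 such features higher with KD3010 (1.94%) and 199 lower (2.54%), together 351 (4.47%). This count depends strongly on the processing, with 26 higher and 17 lower without background correction and 81 higher and 426 lower under median scaling, where the median over all features was -0.12. The 2 DMSO arrays by themselves differed by at least 1.5-fold in 388 features (4.94%) and the 2 KD3010 arrays in 459 (5.85%). Between the group means 361 (4.6%) did. A mean of 2 arrays varies less than 1 array, so these counts are not like for like. Of 51 genes chosen by rule that differed by at least 1.5-fold, 29 had a log2 difference over 1.5 times smaller without background correction, and 51 kept their sign. Those 29 had a median log2 level of 7.40 with DMSO, against 10.56 for the others. Counts of such features in a gene list are therefore descriptions, and the only genes said below to have changed are the 11 called. The lists were chosen with earlier results of these data known, so shares called in a list, beside those of all features, test nothing.

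Among PPAR target genes 28 of 40 listed were tested, 4 were called higher (Plin2, Creb3l3, Pdk4 and Hilpda) and 0 lower, against 0.102% and 0.0382% of all features. The median difference of the 28 was 0.37 on the log2 scale against -0.00145 over all features, and 27 of them were positive. Of the 28, 25 were detected on all 4 arrays, and their median was 0.36. Beside the called genes, Slc22a5, Cpt2 and Acadl lay at least 1.5-fold higher with the arrays apart, and 0 members lay lower by as much. Over all features the shares were 1.94% higher and 2.54% lower. Acot1 and Plin5 also lay at least 1.5-fold higher, but passed detection only with KD3010, a filter that favours this direction. The median lay between 0.24 and 0.50 in all alternative settings, lowest under median scaling and highest without KD3010 array A.

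Slc22a5 encodes the carnitine transporter of the plasma membrane. It had log2 values of 8.34 and 8.36 with DMSO and 9.29 and 9.08 with KD3010, a difference of 0.84 ± 0.16 (limma adjusted p = 0.101). Cpt2, the inner membrane enzyme that releases fatty acids from carnitine, was higher on both KD3010 arrays, with a difference of 0.81 ± 0.16 (limma adjusted p = 0.119). On 2 dimmer probes Slc22a5 differed by 0.99 and, with overlapping arrays, by 0.03. The arrays of both genes were apart on their brightest probes, and neither was called here, although Cpt2 was called in 6 of 18 alternative settings. Acadl, the long-chain acyl-CoA dehydrogenase, differed by 0.67 ± 0.17 (limma adjusted p = 0.194), and a second, dimmer probe by 1.18 (limma adjusted p = 0.0480 over all kept probes). Acot1, an acyl-CoA thioesterase not detected on either DMSO array, was at least 1.95-fold higher (limma adjusted p = 0.194), with log2 values of 5.98 and 5.69 against 6.93 and 7.40. Plin5, which couples droplets to mitochondria, was likewise not detected with DMSO and was at least 1.63-fold higher (limma adjusted p = 0.0909).

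The other members covered a wide range. Angptl4, an inhibitor of lipoprotein lipase and a classical PPAR target, was bright at 13.18 and 13.27 with DMSO and 13.50 and 13.79 with KD3010, a difference of 0.42 ± 0.17 (limma adjusted p = 0.363). Fgf21, the fasting hormone, differed by 0.27 ± 0.16 (limma adjusted p = 0.525). Cyp4a14, a microsomal fatty acid hydroxylase, had 7.91 and 8.10 against 7.79 and 8.34, so its groups overlapped. Acadm, the medium-chain dehydrogenase, was the 1 negative member, at -0.25 with overlapping arrays.

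**Figure D3:**
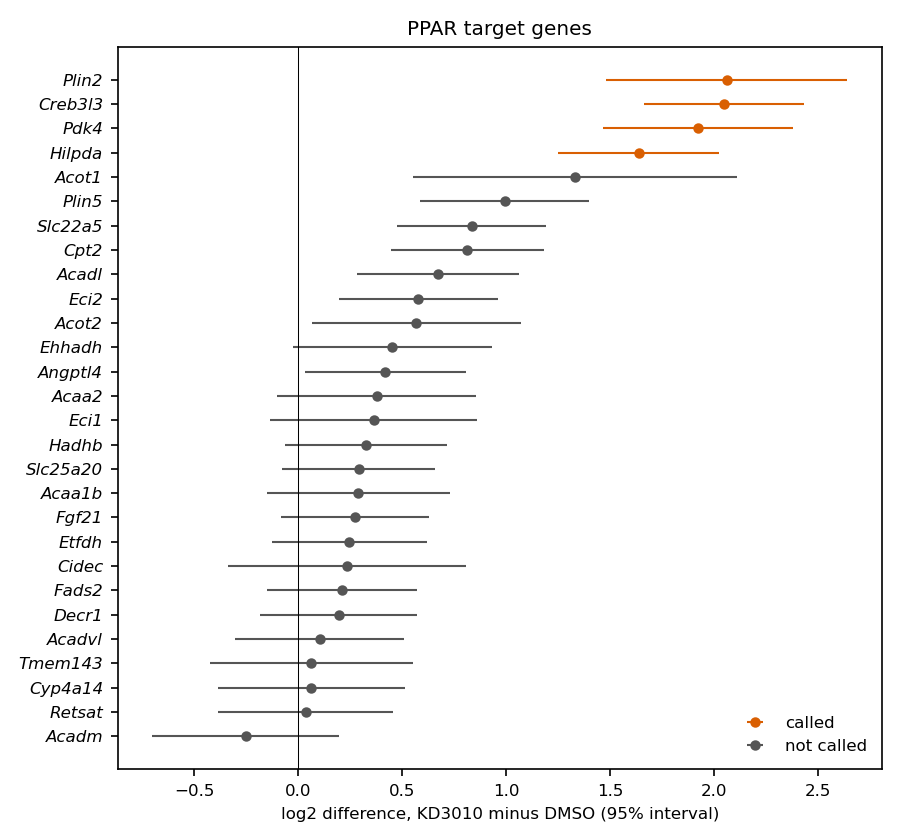
Log2 difference between KD3010 and DMSO (horizontal axis) of the 28 tested PPAR target genes, ordered by size, as points with 95% confidence intervals. The 4 called genes (orange) stand apart at 1.64 to 2.06, and 27 of the 28 points lie above 0.

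Genes of mitochondrial fatty acid oxidation and the carnitine shuttle had a median difference of 0.30 over 20 tested members, 16 of them positive, with 0 called. Of the 20, 13 (65%) are also in the PPAR target list, where they make up 46.4%, and the 7 outside it had a median of 0.05 with 4 positive. Eci2, an enoyl-CoA isomerase (0.58 ± 0.17), and Acot2, a mitochondrial thioesterase (0.57), lay just under the 1.5-fold limit. Echs1, the short-chain hydratase, differed by -0.26 with overlapping arrays. The list's median was 0.18 under median scaling.

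Peroxisomal fatty acid oxidation and biogenesis genes had a median of 0.16 over 22 members, 14 positive, with 0 called. Acot4, a peroxisomal thioesterase, differed by 0.71 ± 0.17 (limma adjusted p = 0.171). Decr2, a reductase for unsaturated fatty acids, was not detected with DMSO and was at least 1.59-fold higher (limma adjusted p = 0.248). It was tested only through the KD3010 arrays, a filter that favours this direction. Pex5, the import receptor of peroxisomal enzymes, differed by 0.53 on its brightest probe and by -0.17 and 0.22 on its others.

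The lipid droplet and neutral lipid list held 20 tested genes, of which 3 were called higher and 0 lower, against 0.102% and 0.0382% of all features. Of the 20, 15 were positive, against 3901 of all 7848, at a median of 0.18. For the 16 that are no listed PPAR targets the median was 0.15, with 11 positive. Lipe, hormone-sensitive lipase, was not detected with DMSO and was at least 1.16-fold higher (limma adjusted p = 0.268), a direction that the detection filter favours. Lpin2, a phosphatidate phosphatase, differed by 0.52 ± 0.15, and Agpat2, an acyltransferase of triglyceride synthesis, by -0.35. The diglyceride acyltransferases Dgat1 and Dgat2 differed by 0.08 and -0.14.

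The other lipid lists held 0 called genes. Fatty acid and triglyceride synthesis had a median of 0.07 over 14 genes, and fatty acid uptake, binding and activation -0.04 over 16. The elongase Elovl6 of the first list had 7.98 and 7.52 with DMSO and 7.01 and 7.19 with KD3010, a difference of -0.65 ± 0.19 (limma adjusted p = 0.235), and Acaca, the first committed enzyme, differed by -0.26. Cholesterol synthesis and uptake had a median of 0.03 over 14 genes, bile acid synthesis and transport 0.10 over 12, and apolipoproteins 0.09 over 16. Apoe, which carries lipoproteins to their receptors, differed by 0.42 ± 0.16, and Cyp8b1, the sterol 12-hydroxylase, by 0.52. The 3 tested genes of ketone body metabolism had a median of -0.21, with differences from -0.36 to 0.13.

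In glucose metabolism Pdk4 was the only called gene among 21 tested members, beside 0.14% of all features, at a list median of 0.05. G6pc, the glucose-6-phosphatase that releases glucose, had 8.98 and 9.08 with DMSO and 8.37 and 8.44 with KD3010, a difference of -0.62 ± 0.15 (limma adjusted p = 0.179). Pfkl, the liver phosphofructokinase of glycolysis, differed by -0.75 ± 0.18 (limma adjusted p = 0.171). In both genes the KD3010 arrays lay below the DMSO arrays, and neither was called. Pdha1, the subunit of pyruvate dehydrogenase that Pdk4 phosphorylates, differed by -0.53 ± 0.26.

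The receptors themselves gave little signal. The single probes for Ppard and Ppara were detected on 0 of 4 arrays, so nothing can be said of their level. Pparg had 7.62 and 7.89 with DMSO and 7.60 and 7.96 with KD3010, a difference of 0.02 ± 0.21 that turned to -0.12 under median scaling. Rxra, the heterodimer partner, differed by 0.39 ± 0.18 (limma adjusted p = 0.422). The list of nuclear receptors and coregulators had a median of 0.12 over 21 genes, 15 of them positive. In it 3 members lay at least 1.5-fold higher with the arrays apart and 1 lower (14.3% and 4.76%), against 1.94% and 2.54% of all features. Of the 21 genes, 18 were detected on all 4 arrays. The lowest difference in the list was -0.68. Its 1 called gene, beside 0.14% of all features, was Creb3l3, which is listed there but is neither a nuclear receptor nor a coregulator. Ppargc1b, a coactivator of mitochondrial genes, differed by 0.82 ± 0.23 (limma adjusted p = 0.216), Nr1i3, the receptor CAR, by 0.61 and Nr1h4, the bile acid receptor FXR, by 0.44.

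Ion channels and guanylin peptides, a list chosen with earlier results of these data known, held 2 of the 3 called falls among 12 tested genes. Over all features 0.0382% were called lower, and the list was not tested. The 12 genes had a median of -0.15, with 9 negative, against 3945 of 7848 over all features. Guca2b, which encodes uroguanylin, another activator of guanylate cyclase C, had 9.82 and 9.73 with DMSO and 8.96 and 8.51 with KD3010. It differed by -1.04 ± 0.18 (limma adjusted p = 0.0870) and was called in 7 of 18 alternative settings. Kcnj8, a potassium channel subunit, was not detected with KD3010 and was at least 1.09-fold lower (limma adjusted p = 0.263). It was tested only through the DMSO arrays, a filter that favours this direction. The water channels Aqp1, Aqp8, Aqp9 and Aqp11 differed by -0.30 to -0.07.

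In metal binding and transport Mt2 was called among 17 genes, beside 0.14% of all features, with a median of -0.05. Cp, the copper-carrying ferroxidase ceruloplasmin, was bright and tight, at 12.89 and 12.87 with DMSO and 12.04 and 11.95 with KD3010. It differed by -0.89 ± 0.15 (limma adjusted p = 0.0843) and was called in 7 of 18 alternative settings. Tfrc, the transferrin receptor, differed by -0.67 ± 0.15 (limma adjusted p = 0.158), and the iron exporter gene Slc40a1 by -0.34, while Trf, transferrin itself, differed by 0.23.

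Ifnk was the only called member of the interferon list, beside 0.14% of all features. In this list 18 of 26 tested genes were negative at a median of -0.11. The interferon-induced genes Mx1 and Ifih1, an antiviral GTPase and an RNA sensor, were not detected with KD3010 and were at least 1.19-fold and 1.34-fold lower. Both were tested only through the DMSO arrays, a filter that favours this direction. Gbp3, a bright guanylate-binding protein, had 13.88 and 13.87 against 13.41 and 13.03, a difference of -0.65 ± 0.18 (limma adjusted p = 0.214). Irf7 and Cxcl10, both interferon-induced, differed the other way, by 0.44 and 0.38. Differences in this list thus lay on both sides of 0.

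NF-kappaB targets and chemokines had a median of -0.15 over 21 genes, 15 of them negative, with 0 called. Tnfaip2, a TNF-induced gene, had 9.69 and 9.84 with DMSO and 8.76 and 9.06 with KD3010, a difference of -0.86 ± 0.17 (limma adjusted p = 0.114), and Il6 differed by -0.49. Among acute phase proteins the median was -0.06 over 23. Mcl1, an anti-apoptotic member of the Bcl2 family, was lower on both KD3010 arrays, at 12.96 and 13.03 against 11.97 and 12.27. It differed by -0.87 ± 0.18 (limma adjusted p = 0.115), and Mcl1 and Tnfaip2 were each called in 6 of 18 alternative settings. Bcl2l11, which encodes the pro-apoptotic protein Bim, differed by -0.53 on its brightest probe and by -0.46 and 0.44 on its others.

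For fibrogenesis and matrix 22 listed genes were tested, 16 of them negative at a median of -0.16, and 0 were called. The basement membrane collagen gene Col4a1 differed by -0.39, the matrix protein gene Sparc by -0.47, and the gelatinase gene Mmp9 by -0.48 (limma adjusted p = 0.353). Ccn2, connective tissue growth factor, had 13.68 and 13.55 with DMSO and 13.69 and 13.71 with KD3010, a difference of 0.08 ± 0.16. Vim and Pdgfa lay on the other side. Vim, the intermediate filament protein vimentin, had 9.71 and 9.40 against 10.36 on both KD3010 arrays, a difference of 0.80 ± 0.23 (limma adjusted p = 0.229). Pdgfa, a growth factor for stellate cells, differed by 0.63 ± 0.21 (limma adjusted p = 0.280).

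Beside these stand the markers of other cell types, whose part in the results was not tested. Of 14 stellate cell markers 3 were detected on all 4 arrays, and Col1a1, Col1a2, Col3a1, Gfap, Lrat, Pdgfra, Pdgfrb and Tagln on none. Their summed signal, Vim among them, was 5843 to 6026 with DMSO and 6065 to 6676 with KD3010. Kupffer cell markers summed to 21832 to 22345 and 22730 to 23960, with Cd14 as the only one detected on all 4 arrays and C1qa, C1qb, C1qc, Cd163, Clec4f, Lyz2, Marco and Vsig4 on none. Cd14 alone, at log2 values of 14.39 and 14.36 with DMSO and 14.49 and 14.42 with KD3010, made up most of that sum. Endothelial markers summed to 2854 to 3061 and 2833 to 2841, with 9 of 14 detected on all 4 arrays and Kdr, Stab2, Tie1 and Gpr182 on none. Cholangiocyte markers summed to 17807 to 18396 and 17778 to 19537, with 3 of 7 detected on all 4 arrays and Krt7, Krt19, Cftr and Tspan8 on none. Of 10 lymphocyte markers 0 were detected on all 4 arrays, and their summed signal was 510.3 to 513.7 and 494.9 to 502.1. In a bulk sample fewer cells of a type and less RNA per cell cannot be told apart.

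RNA splicing genes had a median of -0.12 over 33 members, with 22 negative and 0 called. Luc7l3 and Mbnl2, both splicing regulators, differed by -0.71 each with standard errors of 0.16, and the arrays of both were apart on these brightest probes. The other probes gave -0.70 and -0.20 for Luc7l3 and -0.46, with overlapping arrays, for Mbnl2. Ddx5, an RNA helicase, had 7.71 and 7.58 with DMSO and 5.85 and 6.99 with KD3010, a difference of -1.23 ± 0.30 (limma adjusted p = 0.173) in which the KD3010 arrays themselves were far apart. It was detected on only 1 of the KD3010 arrays, so it was tested only through the DMSO arrays, a filter that favours this direction. Without background correction the Ddx5 difference was -0.46. Cell junction genes had a median of -0.15 over 21, with 17 negative. Tjp3, a tight junction scaffold, differed by -0.89 ± 0.18 (limma adjusted p = 0.115), and by -0.36 on a second probe. Clock genes had a median of -0.13 over 15, and Per2 differed by -0.55 ± 0.16 (limma adjusted p = 0.230).

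Cornified envelope and stress keratin genes, a list of 9 tested members, had a median of 0.21 with 7 positive. Ivl was its only called gene, beside 0.14% of all features. Krt17, a stress keratin, had 9.02 and 9.15 with DMSO and 9.71 and 9.78 with KD3010, a difference of 0.66 ± 0.18 (limma adjusted p = 0.212). The cytoskeleton list had a median of 0.10 over 34 genes. Its Mapre3, which binds growing microtubule ends, was not detected with DMSO and was at least 1.72-fold higher (limma adjusted p = 0.0828). The detection filter favours this direction. Tmsb10, an actin-binding thymosin, differed by 0.61 ± 0.17. In DNA replication and repair Rad54b was the only called gene of 21, beside 0.14% of all features, at a median of 0.13.

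Xenobiotic genes varied in both directions. Among 36 conjugating enzymes and drug exporters the median was 0.06 with 0 called. Gstm3, a glutathione transferase, was not detected with DMSO and was at least 1.52-fold higher (limma adjusted p = 0.119). It passed detection only with KD3010, a filter that favours this direction, and its log2 difference was 0.39 without background correction. The flavin monooxygenase genes Fmo5 and Fmo1 differed by 0.87 ± 0.26 and by -0.72 ± 0.20. Among 21 cytochrome P450 genes the median was 0.08, and Cyp2b10, a classical target of the receptor CAR, differed by 0.61 ± 0.21 (limma adjusted p = 0.295). In the urea cycle and amino acid list Bckdhb, a subunit of the branched-chain dehydrogenase, differed by 0.68 ± 0.16, and Hal, histidine ammonia lyase, by 0.70 ± 0.19, at a median of 0.08 over 28.

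Lists of housekeeping genes had medians near 0 and held 0 called genes. The median was 0.00371 over 49 genes of oxidative phosphorylation, with 25 positive, 0.05 over 17 of the tricarboxylic acid cycle, and 0.03 over 35 ribosomal proteins. Oxidative phosphorylation members ranged from -0.45 for Ndufa1 to 0.31 for Atp5h. Proteasome and ubiquitin genes had a median of -0.03 over 26, heat shock proteins -0.04 over 13, and stress genes of the endoplasmic reticulum -0.02 over 26. Ddit3, the stress factor CHOP, differed by -0.50 ± 0.19 on its brightest probe and by -0.00776 on its other, and Hmox1, haem oxygenase of the oxidant defence list, by -0.58 ± 0.20 (limma adjusted p = 0.294). Psmb7 and Ndufs4 differed by -0.50 and -0.38 on their brightest probes and in the other direction on at least 1 further probe.

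**Figure D4:**
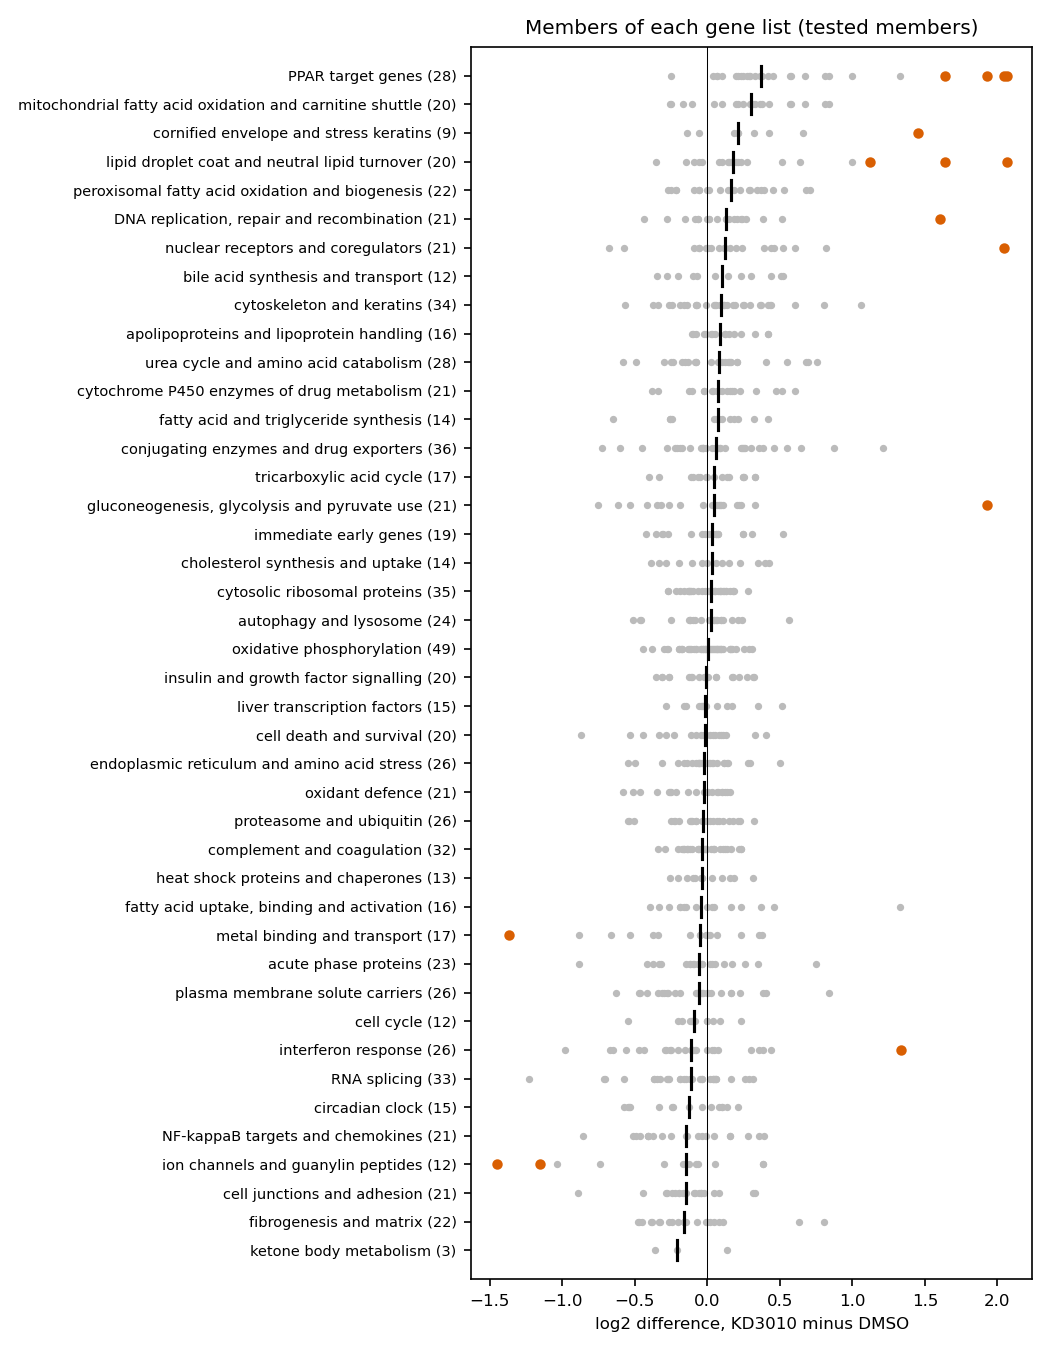
Log2 difference between KD3010 and DMSO (horizontal axis) of every tested member of each of 42 pathway lists, with the number of tested members in parentheses, list medians as black bars and called genes in orange. PPAR target genes have the highest median (0.37), and most list medians lie within 0.2 of 0. Under median scaling 15 of 47 medians, cell type lists included, take the other sign, and none of them is over 0.13 in size here. The median over all features is -0.12 under that scaling, and relative to this shift 1 list takes the other sign.

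Outside the lists, the largest differences among genes detected on all 4 arrays included Mrpl39, a mitochondrial ribosomal protein, at 1.06 ± 0.18 (limma adjusted p = 0.0828), and Il11, a cytokine of the interleukin 6 family, at 1.04 ± 0.18 (limma adjusted p = 0.0843). Il11 had 6.71 and 6.97 with DMSO and 7.71 and 8.06 with KD3010. Palmd, which encodes palmdelphin, had close arrays, at 9.56 and 9.62 against 10.49 and 10.46, a difference of 0.88 ± 0.15 (limma adjusted p = 0.0843). Lce1d, a late cornified envelope protein, and Prkcz, an atypical protein kinase C, each differed by 0.93. Without background correction the difference was 0.42 for Mrpl39, 0.45 for Il11, 0.59 for Lce1d and 0.33 for Prkcz, against 0.73 for Palmd.

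On the lower side Hpgd, which inactivates prostaglandins, had 8.99 and 9.28 with DMSO and 7.99 and 8.42 with KD3010, a difference of -0.93 ± 0.19 (limma adjusted p = 0.128). Aldh1l2, a mitochondrial folate enzyme, differed by -1.05 ± 0.33, with its KD3010 arrays at 7.48 and 6.33. Sirt1, a NAD-dependent deacetylase, differed by -0.90 ± 0.24 (limma adjusted p = 0.211), as did Trim2 and Sbno1 by -0.90 each. Fzd7, a Wnt receptor, differed by -0.89 ± 0.17. None of these genes was called. Without background correction the difference was -0.60 for Hpgd, -0.45 for Aldh1l2, -0.36 for Sirt1, -0.43 for Trim2, -0.35 for Sbno1 and -0.33 for Fzd7.

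**Figure D5:**
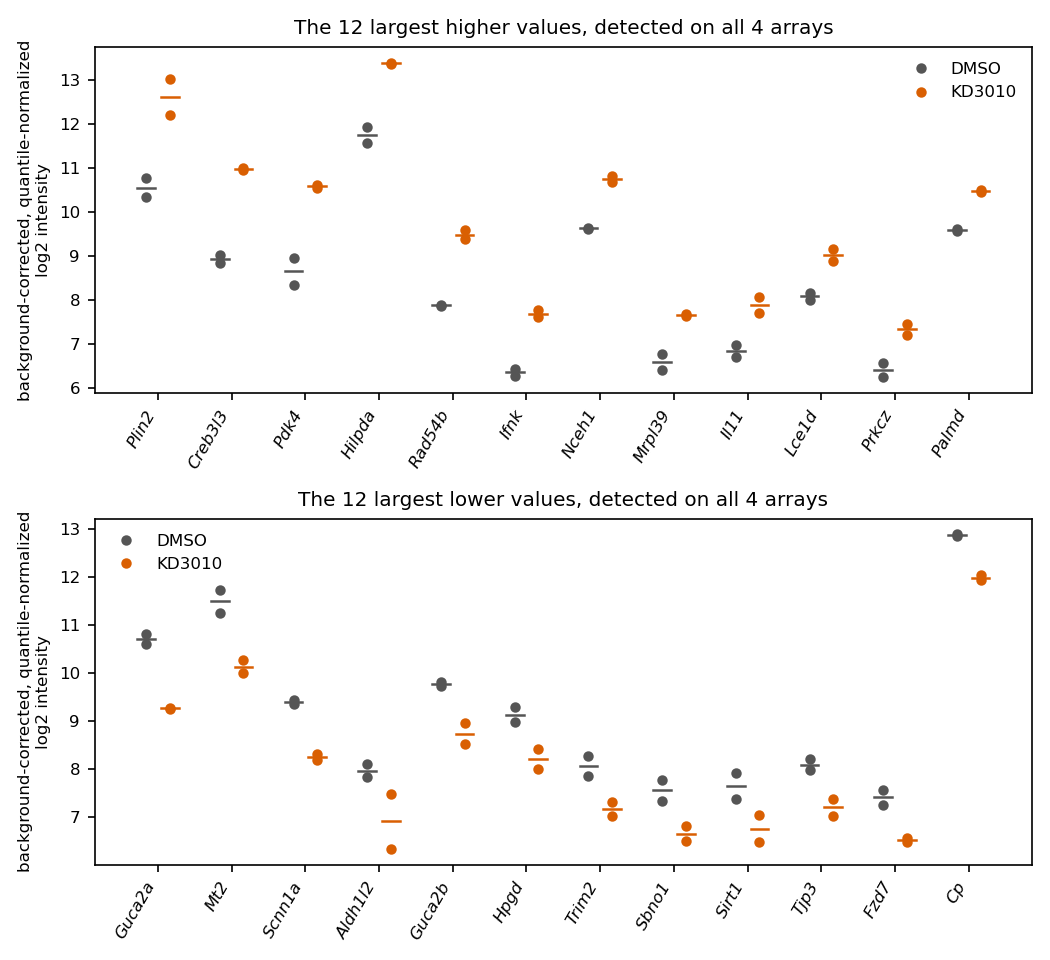
Background-corrected, quantile-normalized log2 intensity (vertical axes) on each DMSO array (grey) and KD3010 array (orange) of the 12 genes with the largest higher values (top) and lower values (bottom) among named genes detected on all 4 arrays with the arrays apart, with bars at the group means. Aldh1l2 has KD3010 arrays over 1 log2 unit apart (7.48 and 6.33), while Palmd and Cp have nearly equal arrays in each group.

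The values of the called genes with GW1516 stand beside these. The comparisons of both compounds share the DMSO arrays, and doses and times were not given, so the values are only set side by side. On the GW1516 arrays Creb3l3 had log2 values of 11.07 and 10.76, Hilpda 13.25 and 13.13, Plin2 12.29 and 12.45, and Nceh1 10.96 and 10.78. Pdk4 read 11.51 and 11.53 with GW1516, against 10.61 and 10.55 with KD3010. Guca2a read 10.49 and 10.71 with GW1516, which overlapped its DMSO values of 10.82 and 10.61. Scnn1a read 9.05 on both GW1516 arrays, between its DMSO and KD3010 values, and Mt2 10.50 and 10.76. Rad54b had 8.57 and 9.25, arrays that differed from each other more than those of the other groups, Ifnk 7.03 and 7.07, and Ivl 7.07 and 7.32.

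Tested directly, 2 of 7848 features were called between KD3010 and GW1516 (0.0255%), and 1091 had an unadjusted p below 0.05 (13.9%). Guca2a differed by -1.34 and Npy, which encodes neuropeptide Y, by 1.51 (limma adjusted p = 0.0488 for each), with both KD3010 arrays beyond both GW1516 arrays. Npy read 8.37 and 8.09 with KD3010, 6.56 and 6.87 with GW1516, and 7.66 and 7.44 with DMSO. Pdk4 differed by -0.94 ± 0.20 between the compounds, with a 95% interval of -1.40 to -0.48, and was not called (limma adjusted p = 0.144). For Creb3l3 the interval of the difference was -0.32 to 0.45, for Plin2 -0.34 to 0.82 and for Hilpda -0.20 to 0.58. Guca2a was the only gene called against both DMSO and GW1516. The calls of Guca2a and Npy were lost when any 1 of the 6 arrays was left out (815 to 1078 features at an unadjusted p below 0.05), while 38 features were called without background correction.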

How the data were processed

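RNA of primary mouse hepatocytes had been labelled with biotin and hybridised to Illumina bead arrays, 2 per group, per the labels' protocols. The deposited unnormalized table gives each probe's average signal, an intensity before any log, per the file headers. The submitters' processing notes name GenomeStudio, without its version. A deposited detection p-value of each probe sets it against negative controls, per the file headers. A second deposited table holds intensity values that the authors had normalized, and how is not given in the sources used here. These values equal the series matrix, and 1 unnamed column was not used.

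Intensities were background-corrected with normexp on the detection p-values (offset 16), quantile-normalized and put on the log2 scale (limma 3.58.1, R 4.3.3). Of 25697 probes 23978 had 1 symbol in the platform annotation, 0 had several and 1719 had none, and symbols were updated through Entrez identifiers (23962), accessions (9) or kept (7). lmFit and eBayes fitted group means to the 6 arrays (3 residual and 6.84 prior degrees of freedom), with Benjamini-Hochberg adjustment over all features. The steps were tested on simulated data. Depth is given by the 2 arrays per group, which limit the precision. Errors of differences are standard errors, and intervals are 95% intervals. For a probe not detected in 1 group, the bound sets the brighter group's mean against the probe's own signal or, where that is lower, the lowest signal detected on the array. It is no confidence limit, as it leaves out the spread between arrays and the effect of background correction.

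The members, 42 pathway lists and 6 lists of cell type markers were chosen with earlier results of these data known, so lists are described by counts and medians and not tested. Of 1239 distinct listed genes 865 were tested. Genes named by rule were every called gene, and the 12 largest higher and 12 largest lower values. The latter were taken among genes detected on all 4 arrays with the arrays apart. Each list gave its called members or otherwise up to 3 with arrays apart. Not all of these are described above, and Slc1a4 (-0.63 ± 0.16, 1.54-fold lower) and Map1lc3a (0.56 ± 0.18) are among those left out. Named in every case were Pdk4, Plin2, Creb3l3, Hilpda, Angptl4, Acadl, Cpt2, Fgf21, Ccn2, Vim, Ppard, Ppara, Pparg and Rxra. All other genes were named after their values were seen, among them Plin5, Lipe, Lpin2, Agpat2, Dgat1, Dgat2, Eci2, Acot2, Echs1, Acadm, Cyp4a14, Pfkl, G6pc, Pdha1, Ppargc1b, Nr1i3, Kcnj8, the aquaporins, Tfrc, Slc40a1, Mt1, Mx1, Ifih1, Gbp3, Irf7, Cxcl10, Col4a1, Sparc, Krt17 and Npy. Alternatives were other background corrections, scalings, filters, probe rules and variance models, the authors' values, a replicate block and leaving out each array.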

Additional observations from a re-analysis of the deposited data

How the results depend on the processing

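The count of genes called between KD3010 and DMSO, 11 in the reported setting, was 34 (19 higher, 15 lower) without background correction, 26 with an offset of 50, 32 (17 higher, 15 lower) on the authors' normalized values, 6 without a detection filter, 22 at a detection p below 0.01, 7 with the 4 arrays of both groups only and 57 with a trended, robust prior. It was 9 under median scaling, 12 with detection on all 4 arrays, 10 with averaged probes, and 0 to 7 with an array left out. The fit with the replicate number as a block, on the series matrix values, called 38 (22 higher, 16 lower), against 32 without the block. Same-numbered arrays did not deviate together (correlations of -0.00366, 0.000234 and 0.00885). The labels give only the shared number, and whether same-numbered arrays were processed together was not tested. Between KD3010 and GW1516, where 2 were called, the count was 38 without background correction, 24 with an offset of 50, 0 under median scaling, 39 on the authors' values, 0 without a filter, 6 at a detection p below 0.01, 5 with detection on all 4 arrays, 0 with mean probes, 0 with 4 arrays, 67 with the trended prior, 47 with the block and 39 without it, and 0 with an array left out. Settings with 0 calls had 815 to 1635 features at an unadjusted p below 0.05. Leaving out an array of the third group, and the series matrix fit without a block, were chosen after seeing the data. An array left alone in its group is assumed to vary like the other groups. Over the named genes 2124 of 2270 alternative values kept direction and side of the threshold, 66 lost the call and 77 gained one. Only 11 of these 127 genes were called in the reported setting, so most kept values are of genes that stayed uncalled. All 66 lost calls were those of the 11 genes, so the total does not measure how stable the calls are. Pparg took the other sign under median scaling (-0.12), without DMSO array A (-0.11) and without KD3010 array B (-0.16). The causes were not tested. Dim probes limit the calls: a signal near background, as in Ivl and Ifnk, has a fold set by the background correction.

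Median scaling put the median over all features at -0.12, and the list medians that moved by more than the spread between arrays became, on the log2 scale, PPAR targets 0.24, mitochondrial oxidation 0.18, peroxisomes 0.047, lipid droplets 0.059, fatty acid uptake -0.17, cholesterol -0.10, fat synthesis -0.031, bile acids -0.014, glucose -0.059, urea cycle -0.029, cytochrome P450 -0.0097, conjugation -0.039, oxidant defence -0.15 and metals -0.17. Others there were acute phase proteins -0.15, complement -0.13, reticulum stress -0.15, heat shock -0.15, proteasome -0.14, interferon -0.22, NF-kappaB -0.22, immediate early genes -0.093, cell cycle -0.20, DNA repair -0.011, circadian clock -0.27, oxidative phosphorylation -0.11, citrate cycle -0.082 and ribosome -0.052. The remaining ones were RNA splicing -0.25, nuclear receptors 0.045, liver transcription factors -0.12, fibrogenesis -0.30, cytoskeleton -0.0063, junctions -0.23, cell death -0.17, insulin -0.13, ion channels -0.28, solute carriers -0.18, autophagy -0.095, hepatocyte -0.13 and endothelial cells -0.18. Medians without background correction, and on the authors' values (with or without a block), were 0.29 and 0.28 for PPAR targets, 0.23 and 0.24 for mitochondrial oxidation, 0.090 and 0.086 for peroxisomes, 0.12 and 0.13 for lipid droplets, -0.023 and -0.017 for complement, -0.052 and -0.052 for cell cycle, 0.050 and 0.050 for DNA repair, -0.095 and -0.095 for RNA splicing, -0.11 and -0.11 for fibrogenesis, -0.075 and -0.074 for junctions and -0.11 and -0.11 for ion channels. Without a detection filter they were 0.29 for PPAR targets, -0.0031 for ketone bodies, -0.020 for glucose, -0.027 for complement, -0.14 for NF-kappaB, -0.0052 for cell cycle, -0.022 for circadian clock, -0.050 for RNA splicing, -0.052 for fibrogenesis, -0.015 for ion channels, -0.039 for solute carriers and -0.033 for Kupffer cells. With probes averaged per gene they were -0.0094 for complement, -0.080 for RNA splicing, 0.17 for nuclear receptors, -0.12 for fibrogenesis, -0.095 for junctions and -0.091 for cell death, and 0.083 for Kupffer cells with detection required on all 4 arrays. Leaving out each array in turn moved the medians of 43 lists, over ranges of DNA repair 0.038 to 0.22, NF-kappaB -0.24 to -0.12, PPAR targets 0.34 to 0.50, RNA splicing -0.14 to -0.10, apolipoproteins 0.0011 to 0.15, autophagy -0.016 to 0.038, bile acids 0.039 to 0.20, cell cycle -0.096 to -0.033, cell death -0.079 to 0.055, junctions -0.17 to -0.057 and cholangiocyte -0.41 to -0.022. Further ranges were circadian clock -0.20 to -0.025, complement -0.079 to -0.0086, conjugation 0.040 to 0.11, cornified envelope 0.20 to 0.40, cytochrome P450 0.021 to 0.13, ribosome -0.0080 to 0.048, reticulum stress -0.032 to 0.020, fat synthesis 0.014 to 0.10, fatty acid uptake -0.12 to 0.13, fibrogenesis -0.18 to -0.093 and glucose -0.046 to 0.048. The next were heat shock -0.083 to 0.072, hepatocyte -0.17 to -0.034, immediate early genes 0.00081 to 0.090, insulin -0.093 to 0.016, interferon -0.25 to -0.022, ion channels -0.21 to -0.15, ketone bodies -0.37 to 0.035, lipid droplets 0.17 to 0.29, liver transcription factors -0.038 to 0.044, metals -0.13 to 0 and mitochondrial oxidation 0.19 to 0.34. The last were nuclear receptors 0.089 to 0.19, oxidant defence -0.085 to 0, oxidative phosphorylation -0.016 to 0.055, peroxisomes 0.16 to 0.21, solute carriers -0.089 to -0.031, proteasome -0.058 to -0.028, endothelial cells -0.10 to 0.051, stellate cells -0.011 to 0.28, citrate cycle 0.018 to 0.12 and urea cycle 0.019 to 0.13.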
